A study of Mus musculus with 18 samples.

Results

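The proteasome genes were followed in 3 tissues (skeletal muscle, heart, hippocampus) from mice that express TN-XXL and of their wild type littermates. Members were all probe sets whose annotation gave a single gene symbol beginning with Psma to Psmg and a digit. The rule took 56 of 35382 probe sets, for 49 of the 18781 genes with a probe set of their own, and used no measured value. Of these genes, 7 belonged to the alpha ring of the 20S core, 11 to its beta ring, 17 to the 19S cap, 5 encoded activators or the inhibitor Psmf1, and 7 encoded assembly chaperones. The other two, Psmc3ip and Psme3ip1, encode proteins named after a proteasome subunit and are not subunits. Psma4 shared its probe set with another symbol and was not analysed here, and the same held for Psme2b, a close copy of Psme2.

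The proteasome degrades proteins that carry ubiquitin chains. Its 20S core is a barrel with the active sites inside, in the beta subunits Psmb5, Psmb6 and Psmb7. The 19S cap recognises the chain, removes it, and unfolds the substrate with a ring of ATPases, and core and cap form the 26S particle. Interferon replaces the active subunits by Psmb8, Psmb9 and Psmb10, which gives the immunoproteasome known for making peptides for MHC class I. Other rings can sit on the core in place of the cap: PA28, made of Psme1 and Psme2, nuclear PA28 gamma (Psme3) and PA200 (Psme4). In muscle, the ubiquitin-proteasome system carries out much of the breakdown of myofibrillar proteins during atrophy.

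TN-XXL is a fluorescent calcium sensor protein, built from a troponin C domain and a pair of fluorescent proteins. The 18 arrays formed 6 groups of 3: transgenic skeletal muscle, wild type skeletal muscle, transgenic heart, wild type heart, transgenic hippocampus and wild type hippocampus. All mice were C57BL/6, and the titles mark the transgenic arrays as +/+. The promoter of the transgene, the number of lines, the age of the mice and any pooling are not stated in the sources, so the p-values cover the spread between these arrays and no more, and part of it may be technical. Values are log2 expression after RMA, and the number of arrays limits their precision. Arrays of a group correlated at 0.982 to 0.993 over all probe sets. The median probe set stood at 2.44 to 2.49 in muscle, at 2.61 to 2.63 in heart and at 3.68 to 3.71 in hippocampus, so levels were compared between tissues with that shift in view. Marker genes fitted the labelled tissues: skeletal muscle markers averaged 11.4 to 11.5 in muscle arrays, heart markers 8.1 to 10.0 in heart arrays, and neuronal markers 10.7 to 10.8 in hippocampus arrays. The mean of the 4 heart markers varied widely within a genotype, from 8.09 to 9.26 in wild type and 8.41 to 10.04 in transgenic heart. The part of that spread in the heart comparisons was not tested. Psma8, Psmb11 and Psmg3 lay under the array median in all 6 groups. In the text, a gene is read from its brightest probe set (by the mean over the 18 arrays), differences are log2 with the SE of the limma fit and n = 3 arrays per group, and a gene passed at an adjusted p under 0.05 over all 35382 probe sets.

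In transgenic skeletal muscle, 2 of the proteasome activators were lower than in wild type muscle. Psme1, a subunit of the PA28 ring, fell by 0.69 ± 0.10, which is 1.61-fold (adjusted p = 2.88e-04). Psme4, the PA200 activator, fell by 0.57 ± 0.09, or 1.49-fold (adjusted p = 4.92e-04). Of all 49 genes, 2 rose and 4 fell in muscle. Over the whole array, 3.86% of probe sets rose and 4.3% fell there, so the number of proteasome genes that changed was near the background. Among the 8939 genes with a mean of at least 4.04 over all arrays, 9.25% rose and 11.4% fell.

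Psme1 read 5.11, 5.16 and 4.98 on the transgenic muscle arrays, against 5.85, 5.66 and 5.82 on the wild type muscle arrays. Psme4 read 8.47, 8.43 and 8.51 on the transgenic muscle arrays, against 8.97, 9.05 and 9.11 on the wild type muscle arrays. For both genes every transgenic array lay below every wild type array, with a gap wider than the range within either group. The partner of Psme1 in the PA28 ring did not pass: Psme2 averaged 7.17 ± 0.09 in transgenic muscle and 6.80 ± 0.12 in wild type muscle (SD), a difference of 0.36 ± 0.14 (adjusted p = 0.169), with the arrays apart and the transgenic ones above. Psme2b, its close copy, could share signal with it. Psme3 averaged 7.38 ± 0.03 in transgenic muscle and 7.34 ± 0.02 in wild type muscle, a difference of 0.04 ± 0.07 (adjusted p = 0.858). The inhibitor of the core, Psmf1, averaged 5.35 ± 0.09 in transgenic muscle and 5.19 ± 0.03 in wild type muscle and did not pass (0.15 ± 0.07, adjusted p = 0.225). Psme1 and Psme4 were also the only members that passed when the muscle arrays were fitted alone, where the other 4 calls ended (adjusted p = 0.080 to 0.214).

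The RefSeq promoters of these activators (assembly GRCm38.p6, bases −150 to −1 before the annotated start, 5′ to 3′ on the strand of the gene) are shown because Psme1 and Psme4 fell together while Psme3 did not pass. Capitals mark the 1 match found, the reverse complement of CCAAT.
Psme1 promoter, chr14:55578344-55578493 (plus strand): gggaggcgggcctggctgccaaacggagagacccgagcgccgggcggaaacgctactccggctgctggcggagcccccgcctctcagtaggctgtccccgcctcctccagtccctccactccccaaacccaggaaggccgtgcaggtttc
Psme4 promoter, chr11:30771625-30771774 (plus strand): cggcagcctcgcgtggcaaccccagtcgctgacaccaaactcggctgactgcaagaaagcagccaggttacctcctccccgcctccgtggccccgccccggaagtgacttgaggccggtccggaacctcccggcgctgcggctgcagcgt
Psme3 promoter, chr11:101316063-101316212 (plus strand): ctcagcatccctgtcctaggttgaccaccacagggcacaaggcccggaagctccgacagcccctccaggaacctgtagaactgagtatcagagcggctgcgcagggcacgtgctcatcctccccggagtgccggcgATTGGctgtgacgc
None of 4 motifs was in the Psme1 and Psme4 stretches on either strand: TTCNNNGAA, as bound by STAT factors after interferon, the interferon-stimulated response element (GAAA, 2 bases of any kind, GAAA), as bound by interferon regulatory factors, TGACNNNGC, the antioxidant response element that NRF factors use at proteasome genes, and CCAAT. Over the 250 bases upstream, RefSeq promoters were matched for 41 of the 49 genes, with 45 promoters. None of the 4 motifs was in those of Psme1, Psme4, Psme2 or Psmf1, and Psme2 and Psmf1 did not pass in muscle. TTCNNNGAA and the other motifs thus did not separate the activators that fell from the rest. TTCNNNGAA was in 4.44% of them and in 7.02% of all 32851 promoters, the interferon-stimulated element in 6.67% and 2.98%, TGACNNNGC in 11.1% and 10.2%, and CCAAT in 35.6% and 33.8%. A match is a stretch of letters, with no binding measured here.

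Among the subunits of the core and the cap, changes in muscle ran in both directions. Psma7, an alpha subunit of the core, read 5.89, 5.42 and 5.99 on transgenic muscle arrays and 6.43, 6.37 and 6.29 on wild type muscle arrays. Psma7 thus fell by 0.60 ± 0.14 (adjusted p = 0.0144), with 1 transgenic array well below the other two. Psmc4, an ATPase of the 19S base, read 7.13, 6.94 and 7.16 on transgenic muscle arrays and 7.41, 7.47 and 7.39 on wild type muscle arrays. It fell by 0.34 ± 0.07 (adjusted p = 0.00566), and the groups did not overlap.

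Psmd6, a scaffold subunit of the 19S lid, read 7.80, 7.77 and 7.83 on transgenic muscle arrays, against 7.44, 7.33 and 7.46 on wild type muscle arrays. It rose by 0.39 ± 0.10 (adjusted p = 0.0185). Psmb3, a beta subunit without an active site, read 10.77, 10.80 and 10.75 on transgenic muscle arrays, against 10.47, 10.52 and 10.58 on wild type muscle arrays, and rose by 0.25 ± 0.06 (adjusted p = 0.0208). Its other probe set differed by 0.11 (adjusted p = 0.611), so the probe sets of Psmb3 disagree on the call. Psmc1, another 19S ATPase, passed on its dimmer probe set (0.31, adjusted p = 0.0208) and not on its brighter one (0.26 ± 0.13, adjusted p = 0.29).

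Leaving out single arrays ended 3 of the muscle calls. Psmd6 no longer passed without wild type muscle array 2 (adjusted p = 0.078) or transgenic muscle array 3 (0.061). The same held for Psmb3 without wild type muscle array 1 (0.083) or 2 (0.061) or transgenic muscle array 2 (0.069), and for Psma7 without wild type muscle array 1 (0.055) or transgenic muscle array 2 (0.058).

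The subunits that did not pass in muscle mostly had small positive differences. In all, 38 of the 49 genes (77.6%) had a positive difference there, against 53.0% of all genes, and the median was 0.13, against 0.01 over all genes. The arrays did not overlap for 16 members with the transgenic ones higher and 6 with them lower. Over all probe sets, 11.6% were apart with transgenic higher and 10.3% with transgenic lower. The mean of the 30 genes of the constitutive 26S proteasome was 7.61, 7.60 and 7.64 on transgenic muscle arrays and 7.58, 7.51 and 7.46 on wild type muscle arrays. All 3 transgenic arrays thus lay above all 3 wild type arrays, by a margin smaller than the range of the wild type arrays. Relative to the median of each array, the groups overlapped. The mean was then 5.15, 5.12 and 5.18 on transgenic muscle arrays and 5.13, 5.08 and 5.02 on wild type muscle arrays. In each tissue the members share their arrays, so these counts are no set of independent results.

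**Figure D1:**
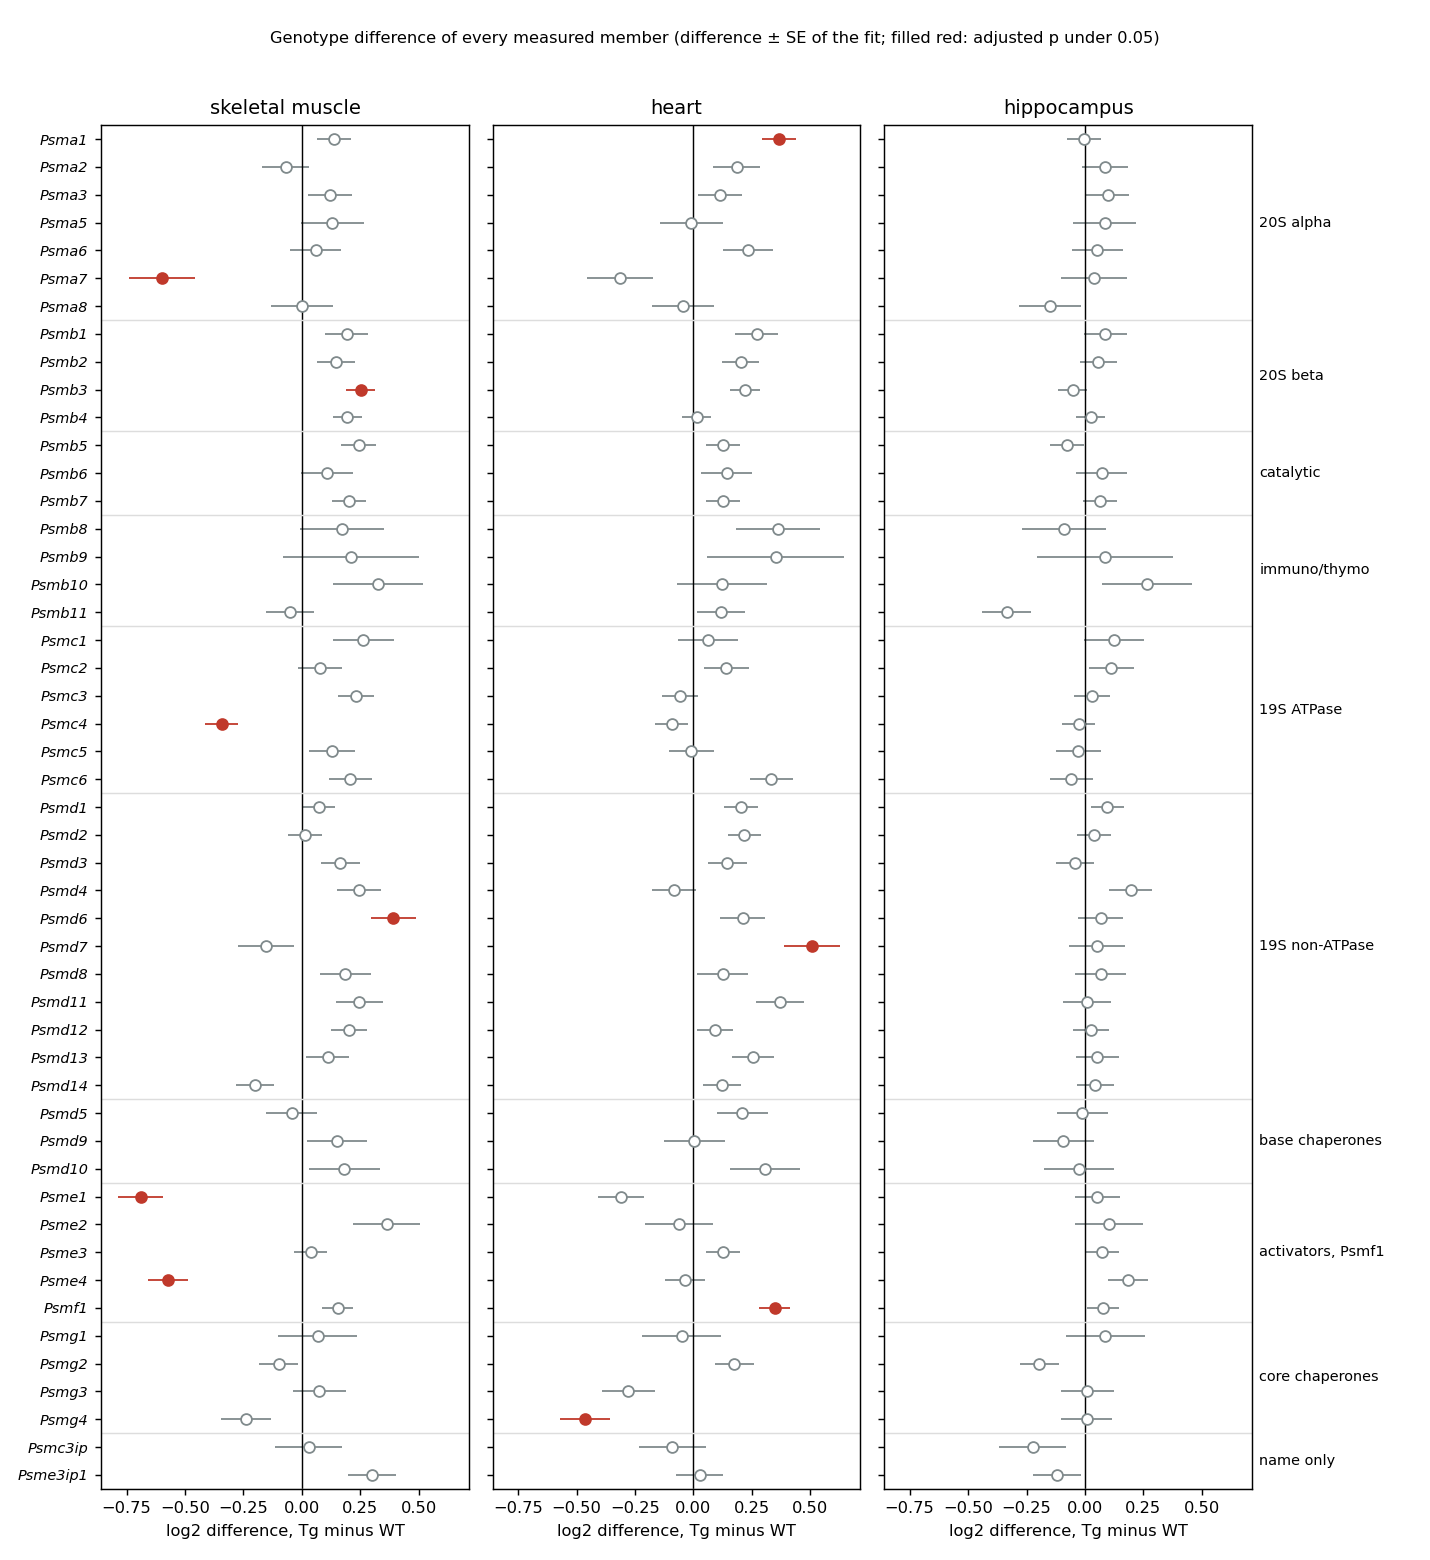
Difference between transgenic and wild type arrays (log2, horizontal axis, ± SE of the fit) for each of the 49 genes, by role down the page, in skeletal muscle, heart and hippocampus. Filled red points passed at an adjusted p under 0.05, which 6 genes did in muscle, 4 in heart and 0 in hippocampus, and 38, 35 and 33 genes lay to the right of 0.

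The active-site subunits of the constitutive core did not pass in muscle. Psmb5, with the chymotrypsin-like site, read 10.67, 10.82 and 10.74 on transgenic muscle arrays and 10.44, 10.50 and 10.55 on wild type muscle arrays. That is a difference of 0.24 ± 0.07 (adjusted p = 0.0596) without overlap, which passed when the dimmer probe sets were left out (adjusted p = 0.0229). Psmb7, with the trypsin-like site, averaged 8.42 ± 0.05 in transgenic muscle and 8.21 ± 0.12 in wild type muscle (adjusted p = 0.12), and Psmb6, with the caspase-like site, 8.32 ± 0.06 in transgenic muscle and 8.21 ± 0.10 in wild type muscle (adjusted p = 0.688).

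Among the subunits that replace them, Psmb8 averaged 2.89 ± 0.30 in transgenic muscle and 2.72 ± 0.11 in wild type muscle (adjusted p = 0.699). Psmb9 averaged 4.10 ± 0.58 in transgenic muscle and 3.89 ± 0.13 in wild type muscle (adjusted p = 0.787). Psmb10 averaged 5.01 ± 0.29 in transgenic muscle and 4.68 ± 0.28 in wild type muscle (adjusted p = 0.405). The arrays overlapped for all 3 genes, and the transgenic arrays of Psmb8 and Psmb9 were spread more widely than the wild type ones. Of 5 leukocyte markers, Cd68 rose by 0.93 in transgenic muscle, and the mean of the 5 was 3.17 to 3.39 in transgenic muscle and 2.89 to 3.14 in wild type muscle. The part of such cells in these values was not tested. The promoters of Psmb5 and Psmb8 are shown as those of a constitutive and an inducible subunit at the same place in the ring, with the matches in capitals (TGACNNNGC in Psmb5, TTCNNNGAA in Psmb8).
Psmb5 promoter, chr14:54617996-54618145 (minus strand): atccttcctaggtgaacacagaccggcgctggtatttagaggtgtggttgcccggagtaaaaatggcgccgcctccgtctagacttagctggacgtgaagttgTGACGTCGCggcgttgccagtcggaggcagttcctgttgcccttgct
Psmb8 promoter, chr17:34198045-34198194 (plus strand): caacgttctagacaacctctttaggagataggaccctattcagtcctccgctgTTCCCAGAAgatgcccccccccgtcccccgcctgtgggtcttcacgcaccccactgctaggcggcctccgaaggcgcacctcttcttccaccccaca
The match began at position −47 in Psmb5 and at −97 in Psmb8, counted from the annotated start, and no other of the 4 motifs was in either stretch.

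The chaperones that assemble the particle did not pass in muscle. Psmg1 and Psmg2, which pair to build the alpha ring, differed by 0.07 ± 0.17 (adjusted p = 0.896) and −0.10 ± 0.08 (adjusted p = 0.606). Their helpers Psmg3 and Psmg4 differed by 0.07 ± 0.11 (adjusted p = 0.809) and −0.24 ± 0.11 (adjusted p = 0.232). Of the chaperones of the 19S base, Psmd5, Psmd9 and Psmd10, 0 of 3 passed, with differences between −0.04 and 0.18. Psma8, the alpha subunit known from testis, and Psmb11, the catalytic subunit of thymic cortex, differed by 0.00 ± 0.13 and −0.05 ± 0.10 in muscle.

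In transgenic heart, 3 proteasome genes rose and 1 fell, none of them among the 6 that passed in muscle. Psmd7, a subunit of the 19S lid that pairs with the deubiquitinase Psmd14, rose by 0.51 ± 0.12, or 1.42-fold (adjusted p = 0.0317). Psma1, an alpha subunit of the core, rose by 0.37 ± 0.07 (adjusted p = 0.0115), and the inhibitor Psmf1 rose by 0.35 ± 0.07 (adjusted p = 0.0107). Psmg4, a chaperone of the alpha ring, fell by 0.46 ± 0.11 (adjusted p = 0.0298). Over the whole array, 1.57% of probe sets rose and 1.62% fell in transgenic heart. Among the 8939 genes with a mean of at least 4.04 over all arrays, 3.34% rose and 4.21% fell there.

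Psmd7 read 7.34, 7.64 and 7.56 on transgenic heart arrays, against 6.81, 7.22 and 7.00 on wild type heart arrays. Psma1 read 7.76, 7.91 and 7.80 on transgenic heart arrays, against 7.42, 7.50 and 7.45 on wild type heart arrays. The groups stood apart for both genes, narrowly for Psmd7. Psmf1 read 5.41, 5.29 and 5.23 on transgenic heart arrays and 4.94, 5.00 and 4.94 on wild type heart arrays, so that each transgenic array lay above each wild type array. Psmg4 read 4.47, 4.22 and 4.31 on transgenic heart arrays and 4.57, 4.97 and 4.83 on wild type heart arrays, with the groups just apart.

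None of the 4 heart calls passed when the heart arrays were fitted alone (adjusted p = 0.188 to 0.246). Psmd7 no longer passed without wild type heart array 1 or 3 or transgenic heart array 2 or 3 (adjusted p = 0.084 to 0.132), Psma1 without transgenic heart array 2 (0.052), and Psmg4 without wild type heart array 2 or 3 or transgenic heart array 2 or 3 (0.088 to 0.115).

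**Figure D2:**
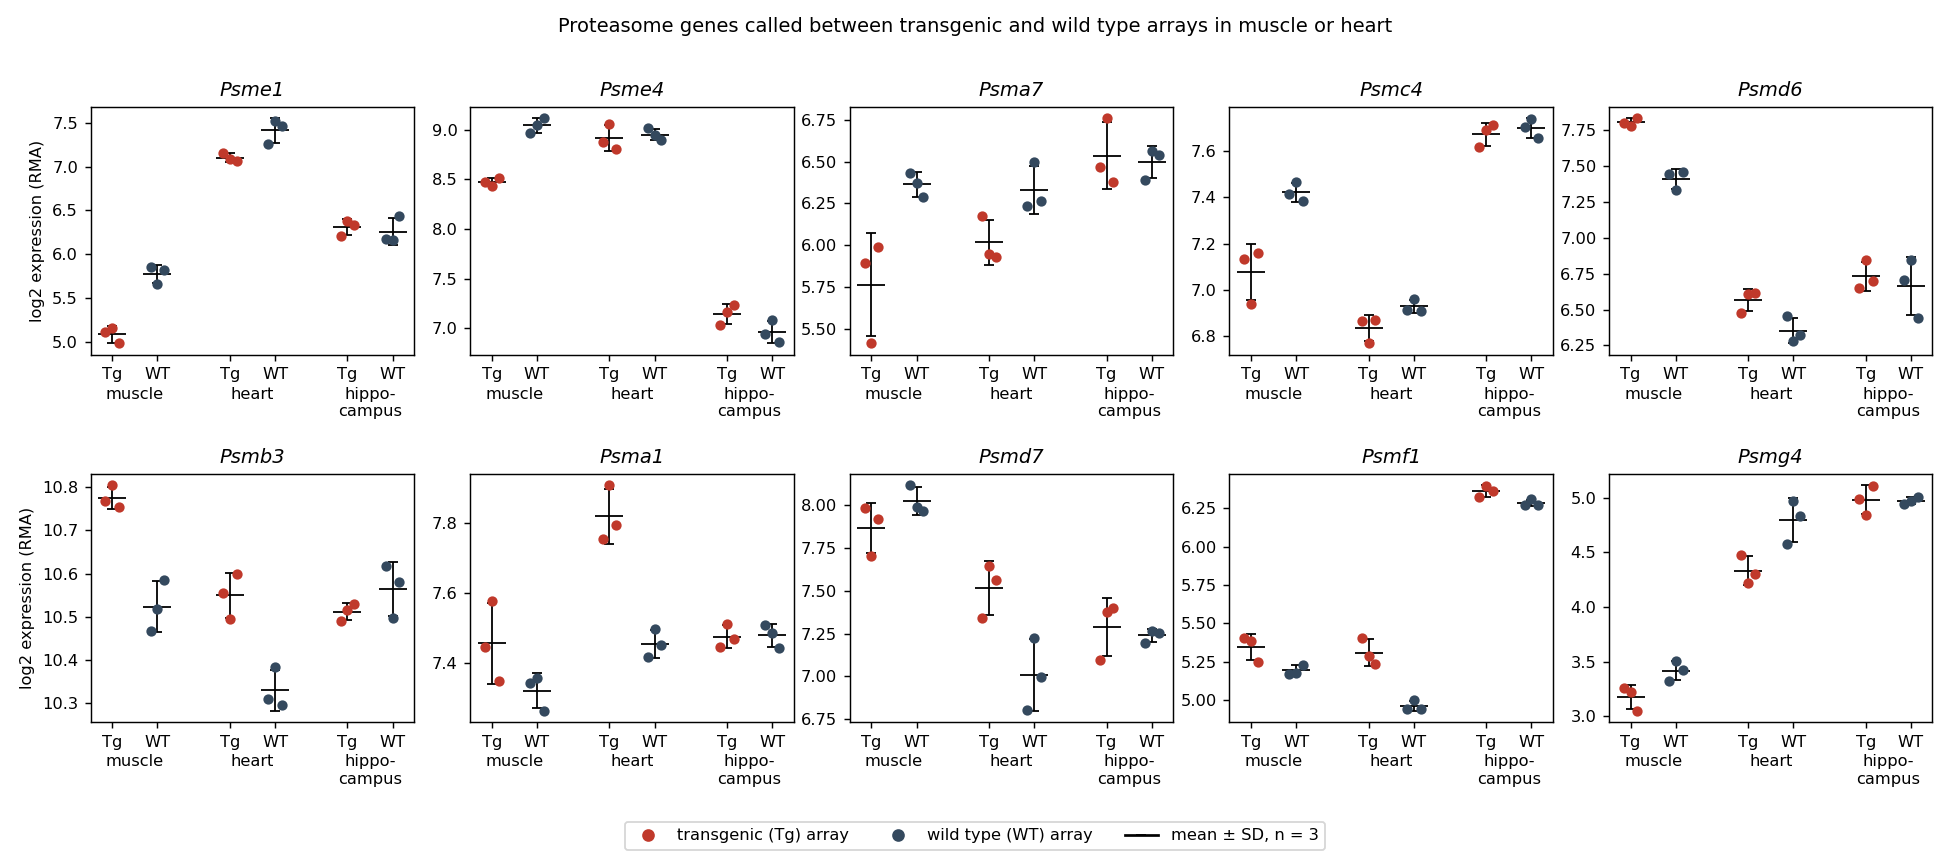
Level (log2, vertical axis, separate scale for each gene) of the 10 genes that passed between transgenic (red, left of each pair) and wild type arrays (dark, right) in muscle or heart, with points for arrays and bars for the mean ± SD of 3. The first 6 panels are the muscle calls and the last 4 the heart calls, and in hippocampus the pairs lie close together.

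The PA28 gene Psme1, lower in transgenic muscle, averaged 7.10 ± 0.05 in transgenic heart and 7.41 ± 0.14 in wild type heart, a difference of −0.31 ± 0.10 that did not pass (adjusted p = 0.114) although the arrays stood apart. Psme4 averaged 8.91 ± 0.13 in transgenic heart and 8.95 ± 0.06 in wild type heart (−0.04 ± 0.09, adjusted p = 0.905). The other muscle calls did not pass in heart, but each had the sign of its muscle difference. Psmd6 and Psmb3 differed by 0.21 and 0.22 in heart, and Psma7 and Psmc4 by −0.31 and −0.09. Psme2 and Psme3 differed by −0.06 ± 0.14 (adjusted p = 0.911) and 0.13 ± 0.07 (adjusted p = 0.46). The active-site subunits Psmb5, Psmb6 and Psmb7 differed by 0.13, 0.14 and 0.13 (adjusted p = 0.476, 0.623 and 0.457). The chaperones Psmg1, Psmg2 and Psmg3 differed by −0.05, 0.17 and −0.28 in heart, and Psma8 and Psmb11 by −0.05 and 0.12, without passing.

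Of the members in heart, 35 (71.4%) had a positive difference, against 49.8% of all genes. For 17 members the arrays stood apart with the transgenic ones higher, and for 4 with them lower, against 9.19% and 9.35% of all probe sets. The mean of the 30 constitutive 26S genes was 7.34, 7.42 and 7.38 on transgenic heart arrays and 7.22, 7.30 and 7.20 on wild type heart arrays. All 3 transgenic arrays lay above all 3 wild type arrays, again narrowly. Relative to the median of each array, the groups in heart stayed apart, but by less than the range within either group. The lowest transgenic value was 4.707 and the highest wild type value 4.695. The mean was then 4.71, 4.80 and 4.77 on transgenic heart arrays and 4.61, 4.70 and 4.57 on wild type heart arrays. Vessel markers moved in the same tissues: of 4 endothelial markers, Tek and Cldn5 fell in transgenic muscle (by 0.72 and 0.85) and in transgenic heart (by 0.48 and 0.97). The mean of the 4 was 6.23 to 6.57 in transgenic and 6.71 to 7.00 in wild type muscle, and 7.03 to 7.38 in transgenic and 7.67 to 7.73 in wild type heart. In tissue RNA, fewer cells of a type and less RNA per cell cannot be told apart, and the part of these markers in the proteasome values was not tested.

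The immunoproteasome genes overlapped between the genotypes in heart as they did in muscle. Psmb8 read 4.06, 4.55 and 3.83 on transgenic heart arrays and 3.69, 3.80 and 3.88 on wild type heart arrays (0.36 ± 0.18, adjusted p = 0.368). Psmb9 averaged 5.08 ± 0.58 in transgenic heart and 4.73 ± 0.25 in wild type heart (adjusted p = 0.658), and Psmb10 6.34 ± 0.28 in transgenic heart and 6.21 ± 0.14 in wild type heart (adjusted p = 0.85). The mean of the 3 genes was 5.09, 5.63 and 4.85 on transgenic heart arrays and 4.88, 4.99 and 4.86 on wild type heart arrays, so that 1 transgenic array was far above the rest. On the same arrays the mean of 10 genes of MHC class I presentation was 5.99, 6.34 and 5.85 in transgenic heart and 6.02, 5.93 and 6.00 in wild type heart, with the same array highest. Leukocyte markers averaged 3.79, 3.86 and 3.79 in transgenic heart and 3.69, 3.86 and 3.92 in wild type heart.

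**Figure D3:**
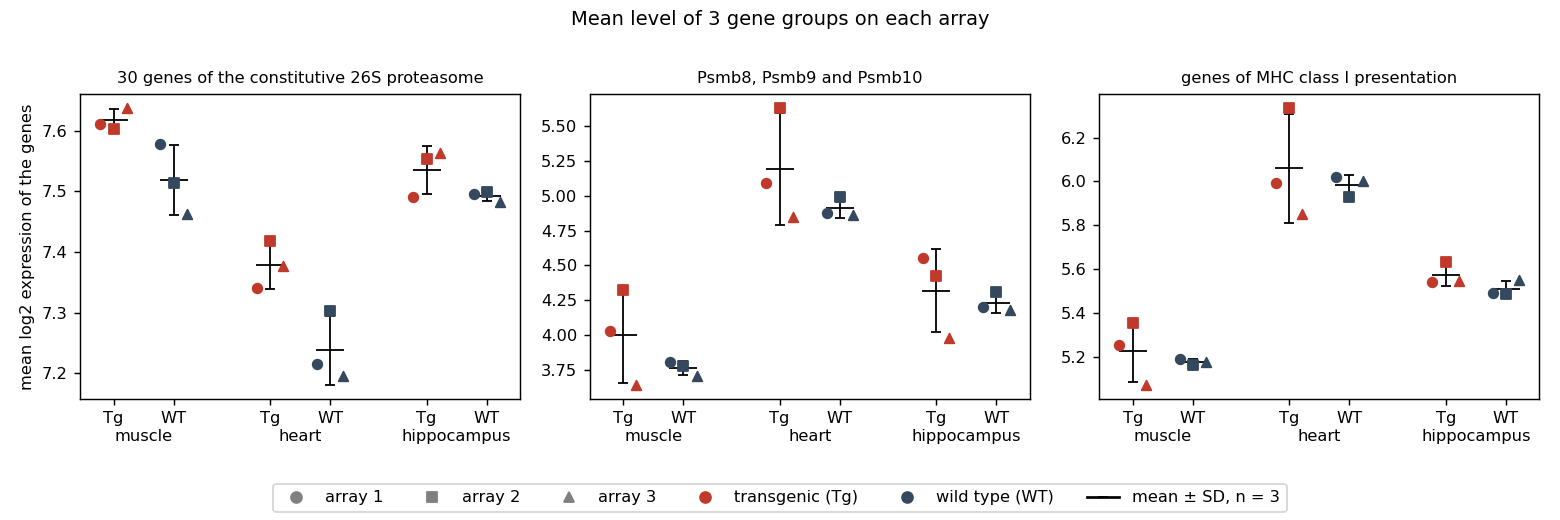
Mean log2 level (vertical axis, own scale in each panel) of 3 gene groups on each array: 30 genes of the constitutive 26S proteasome, the 3 immunoproteasome genes and 10 genes of MHC class I presentation. Red marks transgenic and dark marks wild type arrays, shapes give the array number and bars the mean ± SD of 3. The 26S means as deposited do not overlap between the genotypes in muscle or heart, while transgenic arrays vary widely for Psmb8, Psmb9 and Psmb10. Relative to the median of each array, the 26S means overlap in muscle.

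In hippocampus, 0 of the 49 genes rose and 0 fell, as was so for the whole array (0% and 0% of probe sets). At an unadjusted p under 0.05 there were 2 members by limma, and 962 of all 18781 genes (5.12%). The members with the smallest p were Psmb11 (−0.34 ± 0.10, adjusted p = 0.739), Psmg2 (−0.20 ± 0.08, adjusted p = 0.968), Psme4 (0.18 ± 0.09, adjusted p = 0.99) and Psmd4, a ubiquitin receptor of the 19S cap (0.20, adjusted p = 0.994). Psmb11 lay under the array median there. The arrays stood apart for 4 members with the transgenic ones higher and 3 with them lower, against 5.95% and 7.37% of all probe sets.

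Psme1 averaged 6.31 ± 0.09 in transgenic hippocampus and 6.26 ± 0.15 in wild type hippocampus, and Psmb5 10.33 ± 0.04 in transgenic hippocampus and 10.41 ± 0.12 in wild type hippocampus. Psmf1, which rose in transgenic heart, averaged 6.36 ± 0.04 in transgenic hippocampus and 6.29 ± 0.02 in wild type hippocampus. The mean of the 30 constitutive 26S genes was 7.49, 7.55 and 7.56 on transgenic hippocampus arrays and 7.50, 7.50 and 7.48 on wild type hippocampus arrays, so the groups overlapped. The immunoproteasome genes Psmb8, Psmb9 and Psmb10 differed by −0.09, 0.09 and 0.27, with overlapping arrays. In all, 33 members (67.3%) had a positive difference, against 46.1% of all genes, with a median of 0.04, against −0.01 over all genes.

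Whether the genotype difference itself varied with the tissue was tested by the interaction. It passed for 2 of the 49 genes, Psme4 (adjusted p = 0.00508) and Psme1 (adjusted p = 0.0158), against 3.89% of all probe sets. For Psme4 the genotype difference was higher by 0.53 ± 0.12 in heart than in muscle (adjusted p = 0.0287) and by 0.75 ± 0.12 in hippocampus than in muscle (adjusted p = 0.00248). Between hippocampus and heart it differed by 0.22 (adjusted p = 0.588). For Psme1 it differed by 0.74 ± 0.14 between hippocampus and muscle (adjusted p = 0.00677), and by 0.38 ± 0.14 between heart and muscle, which did not pass (adjusted p = 0.196). The fall of Psme4 was thus different in muscle from both other tissues, and that of Psme1 from hippocampus. For Psmd7, which passed in heart and had a difference of −0.15 in muscle, the interaction did not pass (adjusted p = 0.0814), nor did it for Psmb3, Psma1 or Psmc4 (adjusted p = 0.109 to 0.171).

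Between the tissues of wild type mice, the differences of the 49 genes ran from −2.08 to 1.91, against −0.69 to 0.51 between genotypes. In heart, 9 members were higher and 17 lower than in muscle. Over all probe sets 25.6% were higher and 13.1% lower. Among the 8939 genes with a mean of at least 4.04 over all arrays, 48.8% were higher and 21.7% lower. The immunoproteasome and PA28 genes were higher in heart, and most of the 19S cap was lower. Centring each array or quantile normalization were tried against the shift between tissues, which was 0.17 on centring. Under all 3 scalings, 6 of the higher and 17 of the lower members passed in the same direction. Centring lowers every heart difference here, so it could hardly end a lower call. How many of all probe sets passed in the same direction under all 3 scalings was not computed.

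Psme1 averaged 7.41 ± 0.14 in wild type heart and 5.78 ± 0.10 in wild type muscle, a difference of 1.63 ± 0.10, or 3.1-fold (adjusted p = 2.04e-09). Its partner Psme2 averaged 7.76 ± 0.22 in heart and 6.80 ± 0.12 in muscle (0.96 ± 0.14, adjusted p = 6.34e-05). Psmb10 read 6.37, 6.16 and 6.11 in wild type heart and 4.69, 4.96 and 4.40 in wild type muscle (1.53 ± 0.19, adjusted p = 9.6e-06). Psmb8 read 3.69, 3.80 and 3.88 in wild type heart and 2.70, 2.62 and 2.84 in wild type muscle (1.07 ± 0.18, adjusted p = 1.71e-04). The ranges of all 4 genes were well apart. Psmb9 was higher in heart as deposited (0.83 ± 0.29, adjusted p = 0.0336) but was not among those that passed under all 3 scalings. In the same comparison 7 of 10 MHC class I genes and 4 of 5 leukocyte markers were higher in heart. That compares with 25.6% of all probe sets and 48.8% of the 8939 genes with a mean of at least 4.04. The mean of the markers was 3.69 to 3.92 in wild type heart and 2.89 to 3.14 in wild type muscle. The part of those cells in the immunoproteasome values was not tested.

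Of the 11 non-ATPase subunits of the 19S cap, 8 were lower and 1 higher in heart than in muscle. Over all probe sets 13.1% were lower and 25.6% higher, and among the 8939 brighter genes (mean of at least 4.04) 21.7% and 48.8%. Psmd6 averaged 6.35 ± 0.09 in wild type heart and 7.41 ± 0.07 in wild type muscle (−1.06 ± 0.10, adjusted p = 2.91e-07). Psmd8, a lid subunit, averaged 7.51 ± 0.19 in heart and 8.56 ± 0.21 in muscle (−1.05 ± 0.11, adjusted p = 1.21e-06). Psmd7 averaged 7.01 ± 0.21 in heart and 8.02 ± 0.08 in muscle (−1.01 ± 0.12, adjusted p = 5e-06), and the lid scaffold Psmd11 6.77 ± 0.10 in heart and 7.53 ± 0.13 in muscle (−0.76 ± 0.10). These 4 lid genes each ranged apart between the tissues.

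The active-site subunits differed less. Psmb5 (−0.36 ± 0.07, adjusted p = 0.0011) and Psmb7 (−0.27 ± 0.07, adjusted p = 0.00763) were lower in heart, while Psmb6 did not pass as deposited (−0.26 ± 0.11, adjusted p = 0.0748). Psmb6 was lower in heart after centring (−0.43, adjusted p = 0.0057), after quantile normalization (−0.31, adjusted p = 0.0286) and without wild type heart array 2 (−0.39, adjusted p = 0.0074). Psmf1 was lower in heart (−0.23 ± 0.07, adjusted p = 0.0121), and Psme3 and Psme4 did not pass as deposited (−0.13 and −0.09). After centring, Psme3 (−0.30), Psme4 (−0.26) and the chaperone Psmg2 (−0.30) were lower in heart, and so were Psme3 (−0.20) and Psmg2 (−0.39) after quantile normalization. Among the assembly chaperones, Psmg4 was higher in heart, at 4.57, 4.97 and 4.83 in wild type heart against 3.33, 3.50 and 3.42 in wild type muscle (1.38 ± 0.11, adjusted p = 4.81e-08). Psmg3 was also higher (0.31 ± 0.11, adjusted p = 0.0395), at a level under the array median in both tissues. The call of Psmg3 ended on centring (0.14, adjusted p = 0.343), with the replicate block (0.056), with a trend and robust prior (0.052), with only the arrays of both tissues (0.055), and without wild type heart array 2 or 3 or any 1 of the wild type muscle arrays (0.062 to 0.139). Psmg1 and Psmg2 did not pass as deposited. The mean of the 30 constitutive 26S genes was 7.22, 7.30 and 7.20 in wild type heart and 7.58, 7.51 and 7.46 in wild type muscle, without overlap.

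Of the activators, Psme4 differed between hippocampus and both other tissues under all 3 scalings. As deposited, 21 members were higher and 12 lower in wild type hippocampus than in muscle, against 70.1% and 8.1% of all probe sets. Against heart, 27 were higher and 8 lower, where 67.3% and 9.46% of all probe sets were. Among the 8939 genes with a mean of at least 4.04, 71.4% were higher and 18.8% lower than in muscle. Against heart, these shares were 68.0% and 21.5%. Centring each array lowered all hippocampus differences by 1.26 against muscle and 1.09 against heart, and turned many of the higher calls round: 16 members against muscle and 18 against heart passed in opposite directions under different scalings. The members that passed in the same direction under all 3 scalings were therefore taken as those with a settled direction. These were 1 higher and 12 lower against muscle, and 3 higher and 8 lower against heart. Since centring lowers every hippocampus difference, a member lower as deposited could hardly fail there. For lower members the rule thus adds little to the deposited call, and the split into higher and lower depends on the scalings. The share of all probe sets that passed under all 3 scalings was not computed.

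Psme4 had the largest difference among them. It read 6.94, 7.09 and 6.86 in wild type hippocampus, against 8.97, 9.05 and 9.11 in wild type muscle, a difference of −2.08 ± 0.09 or 4.23-fold (adjusted p = 3.12e-12), and −3.34 after centring. Against the 9.01, 8.94 and 8.90 of wild type heart the difference was −1.99 ± 0.09 (adjusted p = 6.73e-12), and −3.08 after centring. Psme3 was higher than in heart under all 3 scalings: it read 8.70, 8.59 and 8.53 in wild type hippocampus and 7.18, 7.17 and 7.29 in wild type heart (1.39 ± 0.07, adjusted p = 6.62e-11). That difference was 0.31 after centring and 0.66 after quantile normalization. Against muscle, Psme3 was higher by 1.27 ± 0.07 as deposited, but it was not among those that passed under all 3 scalings. Psme1 and Psme2 were lower in hippocampus than in heart under all 3 scalings, with differences of −1.15 ± 0.10 (adjusted p = 2.94e-08) and −0.77 ± 0.14 (adjusted p = 1.93e-04) as deposited, and −2.24 and −1.86 after centring. Psme1 against muscle was 0.48 ± 0.10 as deposited and −0.78 after centring, and has no settled direction. Psme2 against muscle did not pass as deposited, but was lower after centring (−1.07) and quantile normalization (−0.91). Without wild type hippocampus array 2, Psme2 was higher than in muscle (0.34, adjusted p = 0.0388).

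Psmd5, a chaperone of the 19S base, was higher in hippocampus under every scaling. It read 7.22, 7.20 and 7.13 in wild type hippocampus, 5.37, 5.32 and 5.12 in wild type heart and 5.72, 5.30 and 5.49 in wild type muscle. The difference was 1.91 ± 0.11 against heart (adjusted p = 2.44e-10) and 1.68 ± 0.11 against muscle (adjusted p = 1.1e-09). Psmf1 was higher than in heart under all 3 scalings, by 1.32 ± 0.07 as deposited and 0.24 after centring. Psmd9, another base chaperone, was higher by 1.17 ± 0.13 than in heart as deposited and −0.045 after quantile normalization, and so had no settled direction.

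Lower in hippocampus than in muscle under all 3 scalings were also the lid genes Psmd8 (−0.84 ± 0.11), Psmd7 (−0.78 ± 0.12) and Psmd6 (−0.75 ± 0.10), the active-site genes Psmb7 (−0.55 ± 0.07, adjusted p = 5.07e-06) and Psmb6 (−0.47 ± 0.11, adjusted p = 0.00119), and the chaperone Psmg2 (−0.31 ± 0.08, adjusted p = 0.00364). Psmb5 did not pass against muscle as deposited (−0.09 ± 0.07, adjusted p = 0.253), but was lower after centring (−1.35) and quantile normalization (−0.31, adjusted p = 0.0059). Against heart, Psmb7 was lower (−0.28 ± 0.07, adjusted p = 0.00252), Psmb6 did not pass as deposited (−0.21 ± 0.11, adjusted p = 0.0937) but was lower after centring (−1.30, adjusted p = 4.7e-08) and quantile normalization (−1.06, adjusted p = 2.7e-07), and Psmb5 was 0.26 ± 0.07 higher as deposited and −0.82 after centring.

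Of the immunoproteasome genes, Psmb8 and Psmb9 were lower in hippocampus than in heart under all 3 scalings. Psmb8 read 2.59, 2.61 and 2.55 there, under the array median, against 3.69, 3.80 and 3.88 in wild type heart (−1.20 ± 0.18, adjusted p = 2.07e-05), and Psmb9 differed from heart by −0.75 ± 0.29 (adjusted p = 0.0299). Psmb9 no longer passed without wild type heart array 2 (adjusted p = 0.110) or wild type hippocampus array 1 (0.063) or 2 (0.068). Psmb10 read 6.05, 6.40 and 5.94 in wild type hippocampus and overlapped with the 6.37, 6.16 and 6.11 of wild type heart (−0.08 ± 0.19, adjusted p = 0.695), but it was lower than in heart after centring (−1.17, adjusted p = 5.1e-05) and quantile normalization (−1.19, adjusted p = 6.2e-05). Against muscle, Psmb10 was higher by 1.45 ± 0.19 as deposited and did not pass after centring (0.19) or quantile normalization (0.0081). Psmb8 and Psmb9 differed from muscle by −0.13 and 0.09 as deposited and did not pass, but were lower after centring (−1.39 and −1.17) and quantile normalization (−1.14 and −1.42). Leukocyte and microglial markers averaged 4.31 to 4.40 in wild type hippocampus, above the 3.69 to 3.92 of wild type heart as deposited. Relative to the median of each array the order turned round, with 0.61 to 0.69 in wild type hippocampus and 1.08 to 1.29 in wild type heart, and the part of such cells in these values was not tested. Psma8, Psmb11 and Psmg3 were higher in hippocampus as deposited and turned round after centring, at levels under the array median throughout. The 3 tissue comparisons share arrays with each other and with the genotype comparisons, so their differences are not independent of one another.

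**Figure D4:**
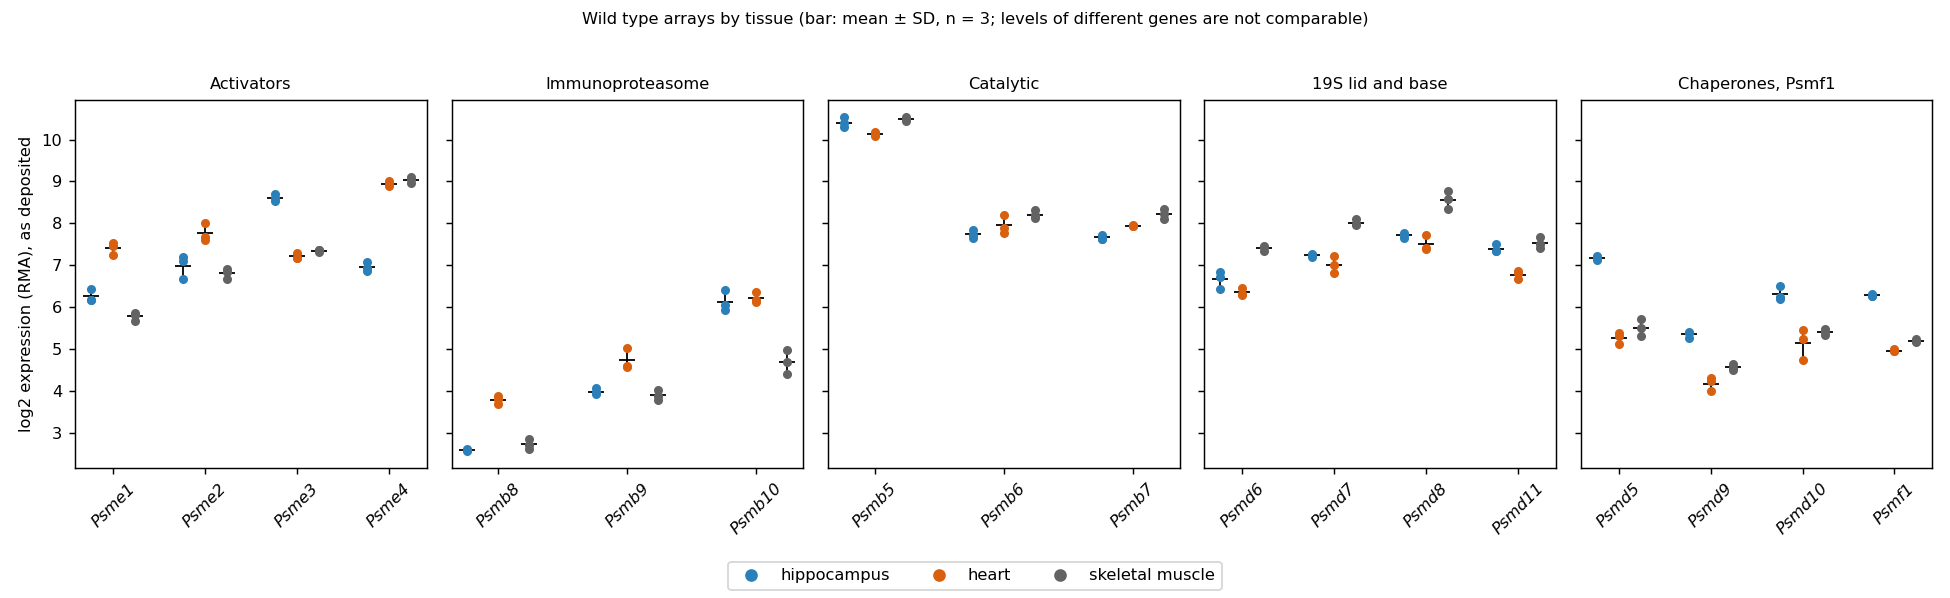
Level as deposited (log2, vertical axis) of 18 proteasome genes in wild type hippocampus (blue), heart (orange) and skeletal muscle (grey), with points for the 3 arrays and bars for the mean ± SD. Psme4 is lowest in hippocampus, Psme1, Psme2 and Psmb8 are highest in heart, the lid genes Psmd6, Psmd7 and Psmd8 are highest in muscle, and levels of different genes are not comparable.

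Of 13 parts and partners of the proteasome outside the symbol rule, 1 rose and 2 fell in transgenic muscle, where 3.86% of all probe sets rose and 4.3% fell. Ubqln2, a shuttle for ubiquitylated proteins, rose by 0.36 ± 0.08 (adjusted p = 0.0139). Ube3c, a ligase that works on the proteasome, fell by 0.50 ± 0.09 (adjusted p = 0.0023), and Ecpas, which holds core and cap together, fell by 0.36 ± 0.07 (adjusted p = 0.0038). Of 10 genes that control proteasome genes, Nploc4, a cofactor of the segregase p97, rose by 0.48 ± 0.08 in transgenic muscle (adjusted p = 0.0010) and by 0.34 ± 0.08 in transgenic heart (adjusted p = 0.0299). Nfe2l1, which encodes the factor that induces proteasome genes when the particle is inhibited, averaged 8.62 in transgenic muscle and 8.71 in wild type muscle and did not pass.

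Of 9 ubiquitin ligases known from muscle, Fbxo32, which encodes the atrophy ligase atrogin-1, was the 1 that passed. It averaged 7.58 in transgenic muscle and 8.72 in wild type muscle and fell by 1.15 ± 0.16 (adjusted p = 0.0003). Trim63, which encodes the other atrophy ligase MuRF1, averaged 9.07 in transgenic muscle and 8.95 in wild type muscle and did not pass. Of 8 genes of ubiquitin and its activation, 0 rose and 0 fell in muscle. Of 10 genes of MHC class I presentation, 0 passed in muscle, and in heart Calr, a chaperone of class I chains, fell by 0.30 ± 0.06 (adjusted p = 0.0157).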

How the data were processed

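RNA of 3 tissues from 2 genotypes had been hybridised to 18 Affymetrix arrays. The authors deposited log2 values, which the submitters' processing notes credit to RMA run in R 2.10.0. Whether all arrays were normalized together is not stated there. Groups came from the sample labels. The platform annotation gave 1 symbol for 21153 of 35382 probe sets, several for 1867 and none for 12362. All 49 member genes matched RefSeq (GRCm38.p6) by Entrez ID.

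A single linear model of 6 group means was fitted with limma 3.58.1 in R 4.3.3 to the unaltered values, with 12 residual and 2.67 prior degrees of freedom, so a gene's SE rests on all tissues. Tests were two-sided and Benjamini-Hochberg adjusted over all probe sets. Named were the members that passed between genotypes (up to 12 in each direction, or the 4 with the smallest p where fewer than 4 passed), for each pair of tissues the 4 with the largest difference in either direction, up to 4 interactions, up to 4 that passed from each other list, and the catalytic, inducible, activator, Psmg, Psma8 and Psmb11 genes. The members and the lists were chosen with earlier results of these data known. Psmc1 was named after its values were seen.

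Alternatives were a fit to the arrays of the compared tissues alone, a replicate block, filters on probe sets, centring or quantile normalization, other priors, weights and thresholds, the mean of a gene's probe sets, and leaving out each array. Arrays with the same number did not deviate together over all probe sets (correlations −0.054 to 0.047), so the numbers were not taken as pairs. These correlations cannot tell whether such arrays came from the same animal, which the labels do not state. The fit was tested on simulated data. Figures were drawn with matplotlib 3.10.9.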

Additional observations from a re-analysis of the deposited data

Results flagged for a closer look

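For 2 genes the genotype difference varied between tissues by the interaction test over all 18 arrays. Psme4 had an adjusted p of 0.00508, with a difference of −0.57 in muscle, −0.04 in heart and 0.18 in hippocampus (transgenic minus wild type). Psme1 had an adjusted p of 0.0158, with −0.69 in muscle, −0.31 in heart and 0.05 in hippocampus.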

How the results depend on the processing

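Over the alternatives, the 6 genes that passed in muscle kept their call in 86 of 102 values and lost it in 16, and the 4 in heart kept it in 50 of 68 and lost it in 18, with no change of direction. No member passed in hippocampus under any alternative. For muscle genes that rose (2 as reported), the count was 6 without probe sets under the median level, 1 by quantile normalization, 4 with a trend and robust prior, 0 at an adjusted p under 0.01, 6 under 0.1, 1 with the mean of the probe sets, 0 with only the muscle arrays, and 1 to 2 on leaving out an array. The genes that fell (4) came to 2 with only the muscle arrays and 3 to 4 on leaving out an array. Of the probe sets fitted, 9.64% rose in muscle without the dimmer ones, 4.12% by quantile normalization and 4.30% with a trend and robust prior. That share was 1.97% at an adjusted p under 0.01, 5.54% under 0.1 and 3.71% with the mean of the probe sets. In heart, the genes that rose (3) came to 6 without the dimmer probe sets, 5 with only probe sets of 1 symbol, 7 with a trend and robust prior, 0 under 0.01, 6 under 0.1, 0 with only the heart arrays, and 1 to 4 on leaving out an array. The gene that fell there (1) came to 0 with the replicate block, under 0.01 and with only the heart arrays, and to 0 to 1 on leaving out an array. Of the probe sets fitted, 4.09% rose in heart without the dimmer ones, 2.85% with only those of 1 symbol and 1.79% with a trend and robust prior. The share that rose was 0.526% under 0.01 and 2.52% under 0.1. The share that fell was 1.47% with the replicate block and 0.591% under 0.01. The replicate block ended the call of Psmg4 in heart (adjusted p = 0.051) and left 2 that rose and 4 that fell in muscle. The interaction (2) came to 5 without the dimmer probe sets and 1 under 0.01.

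Between tissues, centring and quantile normalization gave 29 and 26 members lower in heart than in muscle (17 as reported). For hippocampus against muscle they gave 2 and 3 higher (21) and 43 and 39 lower (12), and against heart 3 and 3 higher (27) and 40 and 36 lower (8). Over all probe sets, these scalings gave 23.3% and 18.8% lower in heart than in muscle. For hippocampus against muscle, 20.6% and 22.6% of all probe sets were higher and 57.5% and 29.6% lower. For hippocampus against heart, 19.2% and 21.5% were higher and 54.8% and 27.2% lower. Against muscle, Psmg4 turned to −0.083 by quantile normalization, Psme1 to −0.78 on centring and −0.82 by quantile, Psmf1 to −0.17 and −0.27, and Psmg3, Psma8 and Psmb11 to −0.56, −0.61 and −0.28 on centring. Against heart, Psmd9 turned to −0.045 by quantile, Psmb5 to −0.82 on centring, Psmg3 to −0.70 and −0.30, Psma8 to −0.64 and −0.081, and Psmb11 to −0.23 on centring. On centring, the turns follow from the array medians that were subtracted. The cause of the others was not tested. With 3 arrays a group the precision is limited, so a gene that did not pass may still differ.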

Other observations

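Transgenic array 3 was the lowest of the 3 transgenic arrays for Psmb8 and Psmb9 in each tissue, a pattern noticed in the data. Psmb10 followed it only in hippocampus, at 6.56, 6.50 and 6.13 on transgenic arrays. For Psmb10, array 1 was lowest in transgenic muscle (4.77, 5.34 and 4.92) and transgenic heart (6.17, 6.66 and 6.18). Psmb9 read 4.41, 4.46 and 3.44 on transgenic muscle arrays, against 4.03, 3.77 and 3.88 on wild type muscle arrays. In heart it read 5.04, 5.67 and 4.52 on transgenic arrays and 4.57, 5.01 and 4.59 on wild type arrays, and in hippocampus 4.36, 4.22 and 3.62 on transgenic arrays and 3.96, 3.92 and 4.06 on wild type arrays. Psmb8 read 2.91, 3.18 and 2.58 on transgenic muscle arrays and 2.74, 2.55 and 2.20 on transgenic hippocampus arrays. Transgenic heart array 2, highest for both genes, was also highest for Tap1, a peptide transporter gene, which read 5.02, 5.85 and 4.20 on transgenic heart arrays and 4.47, 4.40 and 4.31 on wild type heart arrays. The labels do not say whether arrays of the same number came from the same animal, and the cause was not tested.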
